A study of Mus musculus with 4 samples.

Results

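The genes described here are 36 antiviral interferon-stimulated genes of the mouse, chosen by symbol for their known induction by interferon. They were chosen with earlier results of these data known, so their counts beside all genes are a description only. Of the 36 genes, 34 were measured in the globus pallidus of mice given cocaine or saline. A gene counted as measured where array features carried its symbol alone in the platform annotation, and the features of a symbol were averaged. The 34 genes had 54 features among the features of 18987 genes. Ifi44 and Dtx3l were not analysed here. Both groups were C57BL6 males trained in conditioned place preference, in which an animal comes to prefer the compartment paired with a drug. One group received cocaine at 15 mg/kg on days 2, 3 and 4 and had a high preference score, and the other received saline on the same days. Each of 4 arrays with 2 colours held the globus pallidus RNA of 1 cocaine mouse and 1 saline mouse, so 8 mice form 4 pairs numbered 1 to 4. This small number of arrays limits the precision of each value. Cocaine RNA carried Cy5 in pairs 1 and 3 and Cy3 in pairs 2 and 4. The sources used here give no age. No cocaine group of low score was analysed here. The dissection holds every cell type of the tissue, and in bulk RNA fewer cells of a type and less RNA per cell cannot be told apart.

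Type I interferons are secreted when a cell senses viral nucleic acid, and they act through a receptor shared by nearly all cell types. The receptor's kinases activate Stat2, which joins Irf9 in a complex that binds the interferon-stimulated response element (ISRE) in the promoters of many antiviral genes. In the brain, microglia, astrocytes, endothelial cells and neurons can all carry out this response, and its basal level in healthy tissue is low.

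All values are log2 ratios read as cocaine over saline. The table does not state which treatment is the numerator. The design text sets cocaine mice against saline mice in that order, which makes this reading likely but not certain, and every sign below turns if it is the other way round. The pair values are normalized log2 ratios, after a loess curve on signal was removed from each array. A change is the mean of the 4 pair values, with the moderated standard error (SE) of limma after a term for the dye orientation. That SE leaves out the difference between the dye orientations. Where a pair is left out, the dye term stays in the fit. The change is then the average of the means of each dye orientation, not the plain mean of the remaining pairs. The lone pair of an orientation weighs as much as the other pairs together, and the sign can differ from that of the plain mean. A signal is given as a multiple of the background level, which is the signal that the dimmest 5% of listed features stay under, and it is known only roughly. Of 10 listed markers of pallidal and GABA neurons, 9 were measured, and their median signal was 57.3 times background (2.24 to 158). No other brain region was compared, so these signals cannot check the tissue label.

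None of the interferon-stimulated genes passed the threshold for a difference between the treatments. With limma, 0 of the 34 genes had an adjusted p under 0.05, as had 0 of 18987 genes (0%), and the smallest adjusted p of any gene was 0.965. The changes of the 34 genes ran from -0.064 to 0.23, with a median of 0.038, against a median of -0.0053 over all genes. A change above 0 was seen in 27 of the 34 genes (79.4%), against 46.8% of all genes. This excess rested on pair 3. Without it, 12 of 34 genes lay above 0, against 45.9% of all genes, and the median was -0.017. At an unadjusted p under 0.05, 2 of the 34 genes were higher (Rsad2 and Stat2), against 0.927% of all genes, and 0 were lower, against 1.72%. Without pair 1, 6 of the 34 were higher at that level, against 0.579% of all genes, and without pair 4 there were 3, against 3.50%. Without pair 2 there were 0, against 0.769%, and without pair 3 there were 0, against 3.53%.

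The pair medians lay farther from each other than the median change lay from 0. In pair 3, where cocaine RNA carried Cy5, 30 of the 34 genes were above 0 and the median was 0.30. In pair 1, with the same dye order, 23 were above 0 and the median was 0.12. In pair 2, with the dyes exchanged, 12 were above 0 and the median was -0.082, and in pair 4 there were 8 with a median of -0.13. The medians over all genes were -0.0027, -0.022, 0.0038 and -0.0029. The pattern of above 0 in pairs 1 and 3 and below 0 in pairs 2 and 4 was seen in 15 of the 34 genes, against 17.2% of all genes, and the opposite pattern in 1, Mx1, against 2667 of the 18987 genes. The same sign in all 4 pairs was seen in 1 gene, Irf1, against 7.02% of all genes.

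The dye coefficient is the mean of pairs 1 and 3 minus the change, and is positive where the ratio was higher with cocaine in Cy5 than with cocaine in Cy3. It passed an adjusted p under 0.05 (limma) in 2 of the 34 genes, Isg15 and Ifit3, and was positive in both. Of the 18987 genes, it passed upward in 35 (0.184%) and downward in 38. A dye bias of the probes and a difference between the animals of pairs 1 and 3 and those of pairs 2 and 4 cannot be told apart with these 4 arrays. The coefficient also hangs on the recovered signal. Read at a signal 1 log2 unit higher or lower, 9 of 34 genes kept a positive dye coefficient at all 3 signals, and 18 of 34 kept a change above 0. The largest move was 0.68 for a dye coefficient and 0.077 for a change.

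**Figure D1:**
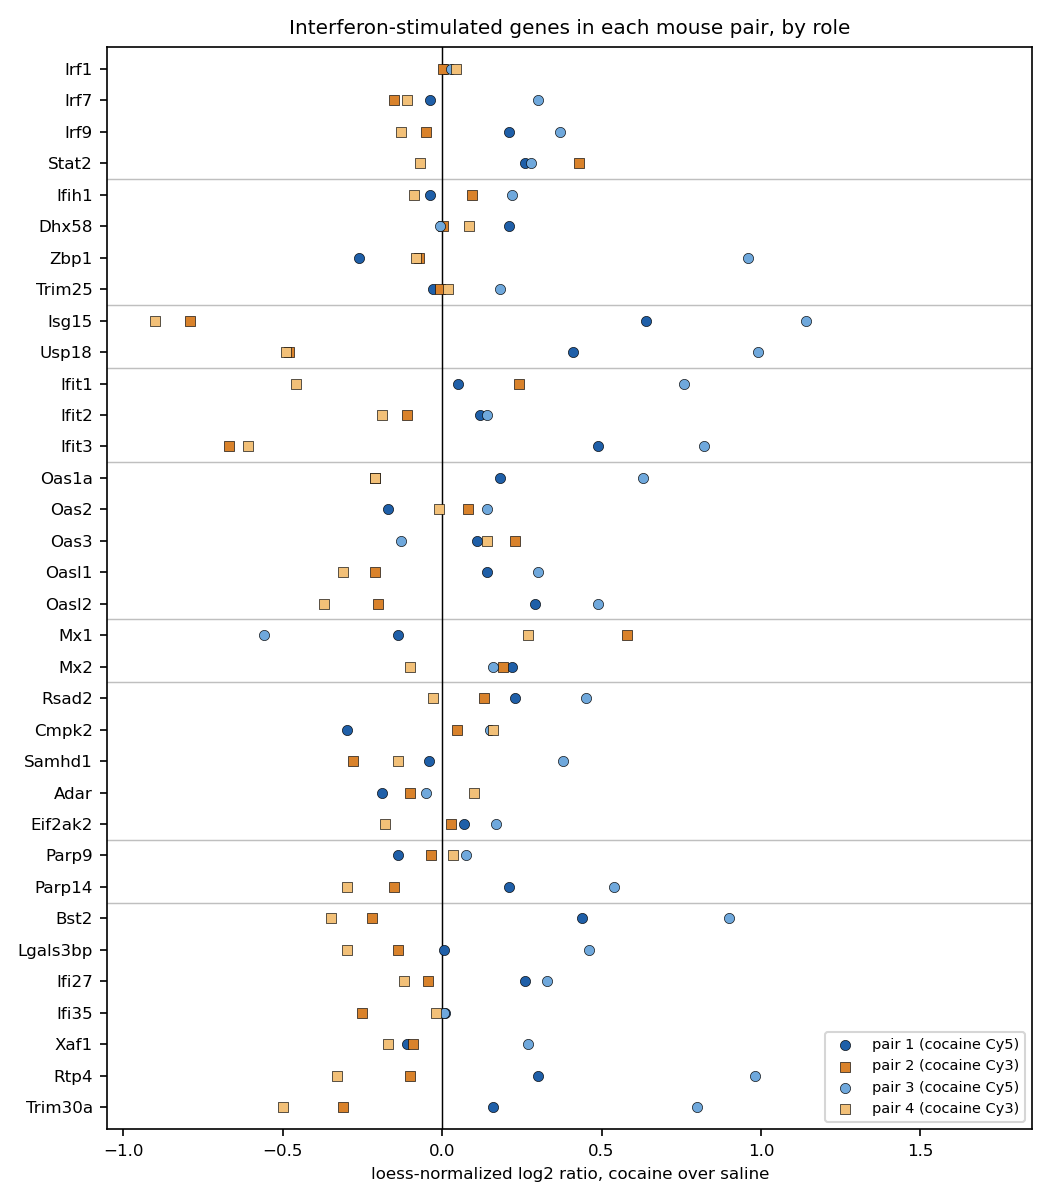
Normalized log2 ratio of cocaine over saline (x axis) of each of the 34 measured genes (rows, grouped by role as in the text), with 1 point per mouse pair. Circles are pairs 1 and 3 with cocaine in Cy5, squares are pairs 2 and 4 with cocaine in Cy3. For 15 genes the circles lie above 0 and the squares below 0, with Isg15 spanning -0.90 to 1.14.

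Promoters are shown for Isg15 and Ifit3, which passed the dye threshold, and for Rsad2, Stat2 and Bst2. The latter had the smallest unadjusted p-values for the change among the measured genes. The letters marked are those of the ISRE, the element that the interferon-activated complex is known to bind. A link between these letters and the values was not tested. The windows are from RefSeq (GRCm38.p6) and reach from 250 bases before to 50 after a transcription start. They are written 5′ to 3′ on the gene's strand, with matches to GAAANNGAAA or, for the other strand, TTTCNNTTTC in capitals. Isg15 is at chr4:156200769-156201068 (minus strand), Ifit3 at chr19:34583279-34583578 (plus), Bst2 at chr8:71537423-71537722 (minus), Rsad2 at chr12:26456403-26456702 (minus) and Stat2 at chr10:128270248-128270547 (plus).
Isg15: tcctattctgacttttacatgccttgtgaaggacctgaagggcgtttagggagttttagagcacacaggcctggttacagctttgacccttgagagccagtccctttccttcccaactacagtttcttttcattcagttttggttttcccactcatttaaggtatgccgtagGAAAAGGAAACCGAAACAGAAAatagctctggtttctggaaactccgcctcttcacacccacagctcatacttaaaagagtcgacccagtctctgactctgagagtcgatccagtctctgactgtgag
Ifit3: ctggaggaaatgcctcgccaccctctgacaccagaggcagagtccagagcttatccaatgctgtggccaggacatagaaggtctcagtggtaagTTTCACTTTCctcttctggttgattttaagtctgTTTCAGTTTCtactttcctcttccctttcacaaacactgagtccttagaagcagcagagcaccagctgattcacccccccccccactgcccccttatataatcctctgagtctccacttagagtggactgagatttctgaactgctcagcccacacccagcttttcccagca
Bst2: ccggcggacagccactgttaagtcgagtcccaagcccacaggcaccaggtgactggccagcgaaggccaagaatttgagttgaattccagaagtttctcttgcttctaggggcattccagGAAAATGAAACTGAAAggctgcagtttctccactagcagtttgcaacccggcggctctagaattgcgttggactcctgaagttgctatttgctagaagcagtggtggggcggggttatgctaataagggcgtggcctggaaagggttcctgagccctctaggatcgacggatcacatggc
Rsad2: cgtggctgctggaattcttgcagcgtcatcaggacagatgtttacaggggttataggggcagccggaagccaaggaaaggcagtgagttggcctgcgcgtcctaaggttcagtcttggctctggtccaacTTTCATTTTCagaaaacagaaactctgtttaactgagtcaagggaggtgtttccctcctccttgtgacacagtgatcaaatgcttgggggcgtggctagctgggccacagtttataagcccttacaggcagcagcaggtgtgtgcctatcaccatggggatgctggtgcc
Stat2: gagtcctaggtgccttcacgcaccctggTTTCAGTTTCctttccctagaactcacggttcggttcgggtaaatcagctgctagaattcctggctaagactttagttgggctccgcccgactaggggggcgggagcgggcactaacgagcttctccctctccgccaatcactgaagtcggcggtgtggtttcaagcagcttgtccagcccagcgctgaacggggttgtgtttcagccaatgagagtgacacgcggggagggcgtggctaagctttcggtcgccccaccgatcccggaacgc
In Isg15, 3 overlapping matches began 78, 72 and 66 bases before the start. In Ifit3, 2 separate matches began 156 and 122 bases before it, and in Bst2, 2 overlapping ones 130 and 124 bases before it. Rsad2 had 1 match, 120 bases before the start, and Stat2 had 1, 222 bases before it. The promoter table held 26 of the 36 genes in 32 windows, of which 12 (37.5%) had a match, in 11 genes. Over all 32851 windows of the table, 3.44% had one. The letters TTCNNNGAA, which read the same on the other strand and are known as the gamma-activated site, were in 8 of the 32 windows (25%) and in 8.3% of all windows. Matches of one motif could overlap each other and those of the other motif. A match is a run of letters and not a measured binding site.

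Among the transcription factors, Stat2 had the highest change of the 34 genes. Stat2, a part of the interferon-activated complex, had 0.26, 0.43, 0.28 and -0.068 in pairs 1 to 4. Pairs 1 to 3, from both dye orientations, were thus above 0 and pair 4 slightly below. Its change was 0.23 ± 0.090 (SE, n = 4; unadjusted p = 0.0461 and adjusted p = 0.965 with limma), at a signal of 13 times background. It was 0.10 without pair 2, 0.35 without pair 4, 0.082 with each array centred on its median without loess, and 0.012 in the ratios as deposited. Irf9, the DNA-binding part of the same complex, had 0.21, -0.052, 0.37 and -0.13, which follows the dye order, and a change of 0.10 ± 0.059. Irf7, which amplifies interferon production, had -0.038, -0.15, 0.30 and -0.11, so pair 3 alone was above 0, with a change of 0.0013 ± 0.073. Irf1, an interferon-induced activator, had 0.010, 0.0037, 0.027 and 0.043 and a change of 0.021 ± 0.054. This even row is an average over 3 features that differed: the brightest, at 22.3 times background, had 0.31, -0.43, 0.64 and -0.13, and the second, at 2.01 times, had -0.29, 0.42, -0.34 and 0.27.

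The changes of the RNA sensors were 0.040 to 0.14. Ifih1 (MDA5), a sensor of long double-stranded RNA, had -0.038, 0.094, 0.22 and -0.089 (change 0.048 ± 0.071). Dhx58 (LGP2), an RNA-binding helicase that tunes it, had 0.21, 0.0029, -0.0080 and 0.083 (change 0.072 ± 0.063). Neither gene separated the dye orders. Zbp1, a sensor of Z-form nucleic acid, had -0.26, -0.072, 0.96 and -0.081, so that pair 3 alone was high and the other pairs were below 0. Its change of 0.14 ± 0.18 became -0.17 without pair 3. Trim25, a ubiquitin ligase of RNA sensing that also acts on RNA, had -0.030, -0.0081, 0.18 and 0.019 (change 0.040 ± 0.061).

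The ISG15 system held the largest dye coefficient of the 34 genes. Isg15, a ubiquitin-like protein attached to other proteins during the response, had 0.64, -0.79, 1.14 and -0.90. The cocaine mouse thus read higher in pairs 1 and 3 and lower in pairs 2 and 4. As deposited, its ratios were 1.08, -1.37, 1.53 and -1.30, where the medians of all features were 0.42, -0.58, 0.41 and -0.43, so the signs before normalization are those of the whole arrays. The change was 0.023 ± 0.090 and the dye coefficient 0.87 ± 0.090 (adjusted p = 0.0457 with limma). The dye coefficient was 0.41 at a signal 1 log2 unit higher and 1.53 at one 1 log2 unit lower, and its call was lost without pair 1, pair 2 or pair 3. Usp18, the protease that removes Isg15 and damps receptor signalling, split the same way, with 0.41, -0.48, 0.99 and -0.49. Its change was 0.11 ± 0.10 (-0.040 without pair 3), and its dye coefficient of 0.59 ± 0.10 had an adjusted p of 0.0785 with limma. Both genes were dim, at 1.93 and 1.77 times background.

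**Figure D2:**
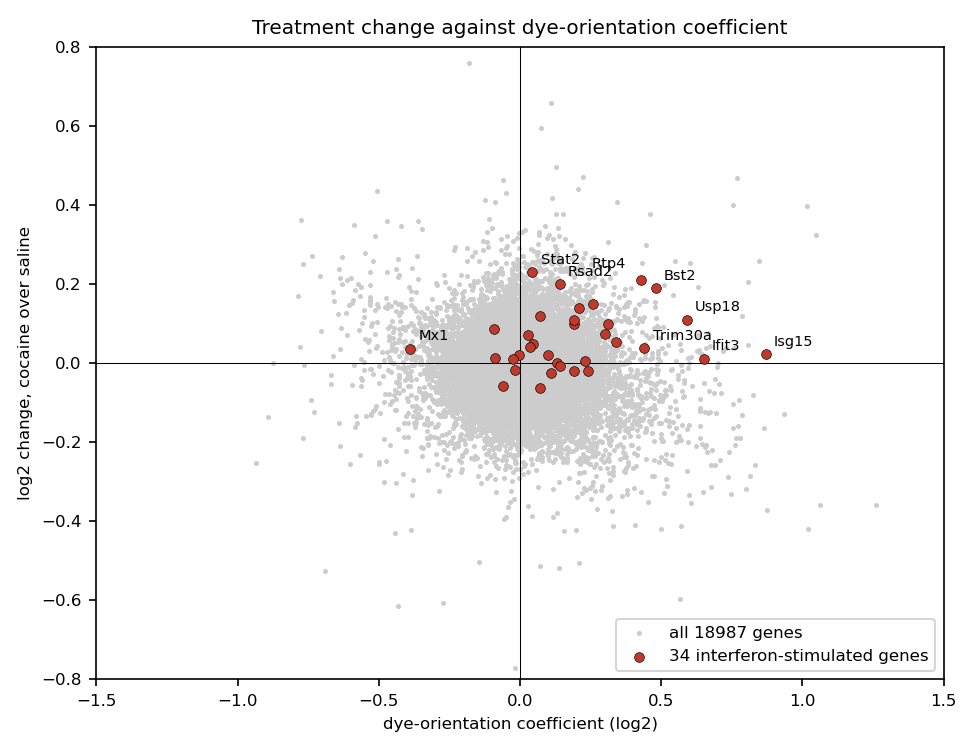
Log2 change of cocaine over saline (y axis) against the dye-orientation coefficient (x axis, log2). Grey points are all 18987 genes, of which 3 lie outside the axes, and red points the 34 interferon-stimulated genes. The red points spread to the right, up to 0.87 for Isg15, and stay between -0.064 and 0.23 in height.

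The IFIT proteins bind foreign RNA and limit its translation. Ifit3 had 0.49, -0.67, 0.82 and -0.61, above 0 in both pairs with cocaine in Cy5 and below 0 in the other two. Its change was 0.011 ± 0.072 and its dye coefficient 0.65 ± 0.072 (adjusted p = 0.0485 with limma), at 3.99 times background. The coefficient was 0.42 and 1.09 at a signal 1 log2 unit higher and lower. Its call, like that of Isg15, was lost without pair 1, pair 2 or pair 3. Both calls were also lost with the brightest feature taken for each gene, where 0% of all genes passed. Ifit3 and Isg15 have 1 feature each, so their own pair values were the same in that setting. Ifit1 had 0.050, 0.24, 0.76 and -0.46, with a change of 0.15 ± 0.15 that became -0.031 without pair 3 and -0.027 without pair 2. Ifit2 had 0.12, -0.11, 0.14 and -0.19, a smaller split of the same kind, and a change of -0.0086 ± 0.055. The mouse genome holds close copies of Ifit3, of the Oas1 genes and of Trim30a, and hybridisation of their RNA to these probes was not tested.

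The OAS proteins are sensors of double-stranded RNA that activate RNase L, and the family also holds OAS-like relatives. Oas1a had 0.18, -0.21, 0.63 and -0.21, and a change of 0.10 ± 0.085. Oasl2 had 0.29, -0.20, 0.49 and -0.37 (change 0.053 ± 0.065), and Oasl1 had 0.14, -0.21, 0.30 and -0.31 (change -0.020 ± 0.060). These 3 genes were above 0 in pairs 1 and 3 and below 0 in pairs 2 and 4. The brighter of the features of Oasl2, at 3.35 times background, had 0.67, -0.56, 1.07 and -0.66, while the other, at 0.984 times, lay between -0.085 and 0.16. Oas2 had -0.17, 0.082, 0.14 and -0.0095 (change 0.010 ± 0.071) and Oas3 had 0.11, 0.23, -0.13 and 0.14 (change 0.087 ± 0.065). Oasl1, Oas2 and Oas3 were close to background, at 1.28, 1.33 and 1.18 times, where a ratio of channels can understate a change.

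The Mx GTPases block viral replication, and inbred strains such as C57BL/6 are known to carry a disrupted Mx1 allele. Mx1 had -0.14, 0.58, -0.56 and 0.27, the reverse of the dye order of Isg15, with a change of 0.036 ± 0.093 and a dye coefficient of -0.39 ± 0.093. Its dye coefficient was 0.27 at a signal 1 log2 unit lower, so its sign is not settled. Mx2 had 0.22, 0.19, 0.16 and -0.10, above 0 in the first 3 pairs, and a change of 0.12 ± 0.068.

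Rsad2 had the smallest unadjusted p of the 34 genes. Rsad2 (viperin), which makes a chain-terminating ribonucleotide, had 0.23, 0.13, 0.45 and -0.028, with pair 4 alone below 0. Its change was 0.20 ± 0.067 (unadjusted p = 0.0256 and adjusted p = 0.965 with limma). Its 3 features, all of 1 transcript accession, did not read alike. The brightest, at 3.42 times background, had 0.46, 0.33, 0.93 and 0.40, above 0 in all 4 pairs with a mean of 0.53. The others, at 1.18 and 1.05 times background, had means of 0.020 and 0.038. With the brightest feature taken for each gene, the change of Rsad2 was 0.53 with an adjusted p of 0.957 (limma). Cmpk2, a nucleotide kinase whose gene neighbours Rsad2, had -0.30, 0.048, 0.15 and 0.16 and a change of 0.013 ± 0.086. Its features also differed, with means of 0.16 at 9.94 times background and -0.14 at 2.3 times.

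The other enzymes acting on RNA and nucleotides were near 0. Samhd1, which breaks down deoxynucleotides, had -0.040, -0.28, 0.38 and -0.14 (change -0.021 ± 0.083). Adar, which edits adenosine to inosine in double-stranded RNA, had -0.19, -0.10, -0.050 and 0.10 (change -0.059 ± 0.064) at 10.7 times background. Eif2ak2 (PKR), the kinase that halts translation, had 0.068, 0.029, 0.17 and -0.18 (change 0.021 ± 0.063). Samhd1 was above 0 in pair 3 alone, Adar was below 0 in pairs 1 to 3, and Eif2ak2 was above 0 in pairs 1 to 3. Parp9, an ADP-ribosyltransferase of the interferon response, had -0.14, -0.036, 0.075 and 0.034 (change -0.017 ± 0.063). Parp14, a mono-ADP-ribosyltransferase, had 0.21, -0.15, 0.54 and -0.30 (change 0.073 ± 0.075), with its brightest feature, at 6.77 times background, at 0.27, -0.14, 0.87 and -0.44.

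**Figure D3:**
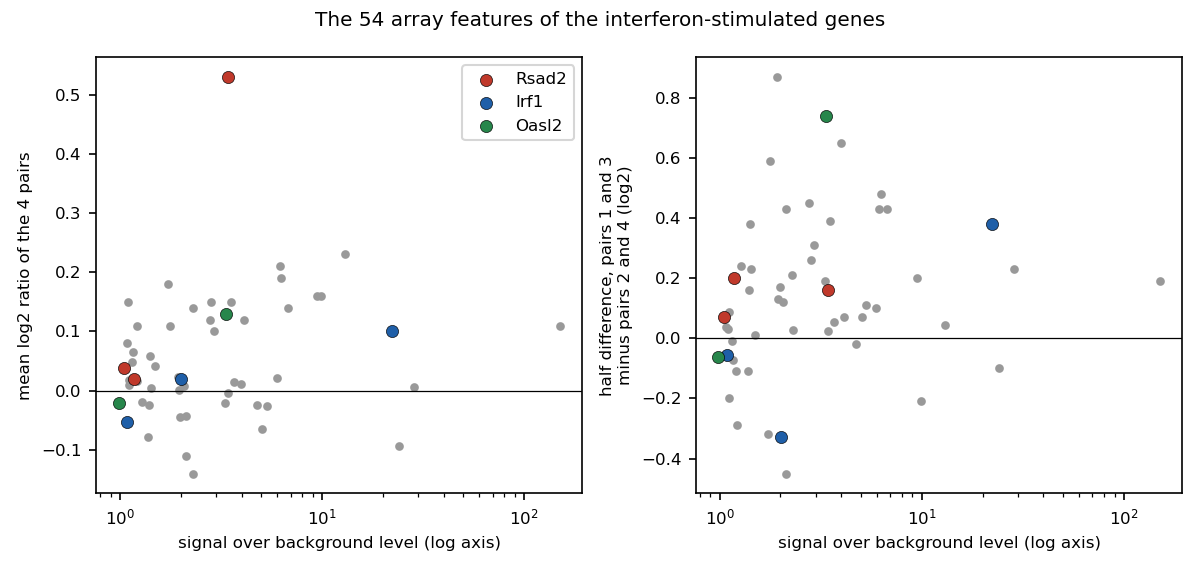
The 54 array features of the 34 genes, by signal over the background level (x axes, log). The left panel shows the mean log2 ratio of the 4 pairs, the right panel the mean of pairs 1 and 3 minus the mean of all 4. Coloured points are the features of Rsad2, Irf1 and Oasl2, whose brightest features stand at 3.42, 22.3 and 3.35 times background. In the left panel these lie above the dimmer features of the same gene. In the right panel those of Irf1 and Oasl2 do so, while that of Rsad2, at 0.16, lies between its dimmer ones at 0.20 and 0.071. Not all genes follow the left-panel order: the brightest feature of Adar, Dhx58, Ifih1, Mx1, Oas2 and Parp9 lies below a dimmer one there.

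Among the membrane, secreted and other induced proteins, Rtp4 and Bst2 had the highest changes. Bst2 (tetherin), which holds budding virions at the cell surface, had 0.44, -0.22, 0.90 and -0.35, and a change of 0.19 ± 0.088. Rtp4, a receptor transporter protein induced by interferon, had 0.30, -0.10, 0.98 and -0.33, and a change of 0.21 ± 0.12. In both genes the cocaine mouse read higher in pairs 1 and 3 and lower in pairs 2 and 4. Without pair 3 the refitted change was 0.074 for Bst2 and 0.043 for Rtp4. In that fit pair 1 weighed as much as pairs 2 and 4 together. Their dye coefficients were 0.48 and 0.43. Trim30a, a mouse protein that damps inflammatory signalling, had 0.16, -0.31, 0.80 and -0.50 (change 0.037 ± 0.11). Ifi27, a small mitochondrial protein, was the brightest of the 34 genes, at 151 times background, and had 0.26, -0.046, 0.33 and -0.12 (change 0.11 ± 0.055). Without loess, with each array centred on its median, the change of Ifi27 was -0.11. Lgals3bp, a secreted glycoprotein, was the next brightest at 28.6 times background, with 0.0067, -0.14, 0.46 and -0.30 (change 0.0055 ± 0.087; -0.18 without loess). In these bright genes the sign of the change turned with the normalization. Ifi35 had 0.0090, -0.25, 0.0065 and -0.020, with pair 2 alone away from 0, and the lowest change of the 34 genes, -0.064 ± 0.063. Xaf1, a partner of the apoptosis inhibitor XIAP, had -0.11, -0.093, 0.27 and -0.17 (change -0.026 ± 0.077).

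**Figure D4:**
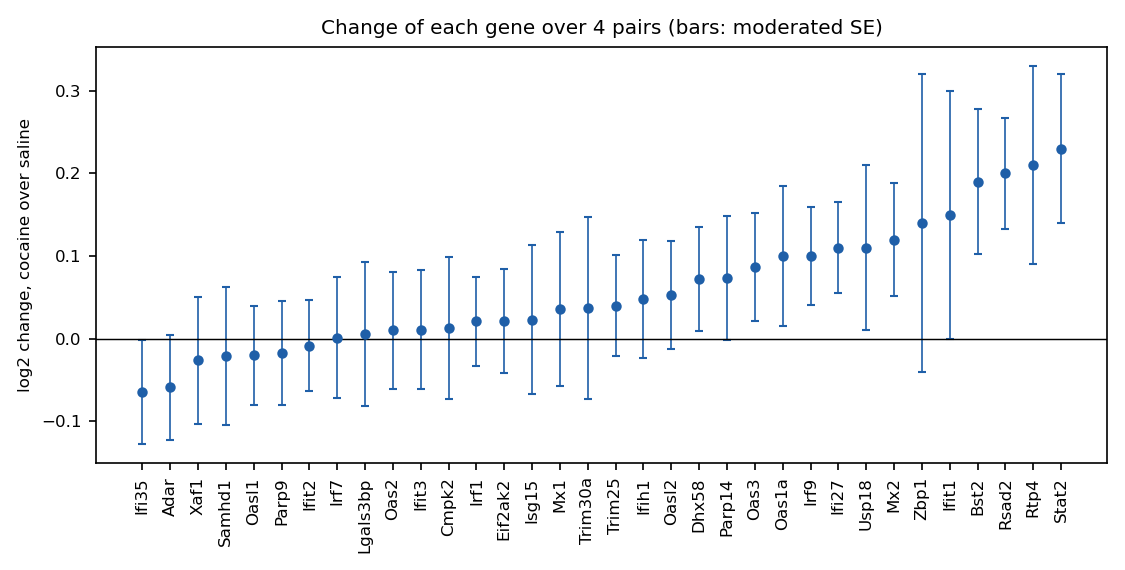
Log2 change of cocaine over saline (y axis) of the 34 genes, in order of size, with bars of 1 moderated SE (n = 4 pairs). The changes run from -0.064 for Ifi35 to 0.23 for Stat2, with 27 above 0, and none has an adjusted p under 0.05.

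Many features of these genes were dim. The median signal of the 34 genes was 2.56 times background (1.18 to 151), against 2.71 for all genes. Of the 54 features, 18 were under 1.5 times background and 15 were at 4 times or more. Where background remains in the ratios, changes of such dim features would be understated, which was not tested. Of the 16 genes with several features, 9 had features whose means differed in sign.

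Genes up- and downstream of this response were read in lists chosen with earlier results of these data known, and in each list 0 genes passed an adjusted p under 0.05. Of the interferon ligands, 13 of 15 were measured, at a median of 1.18 times background, with a median change of -0.015 against -0.0053 for all genes. Ifna13 (change -0.13) and Ifne (change -0.17) had the smallest unadjusted p-values among them. Of the receptors and Jak-Stat genes, 14 of 15 were measured and 9 were above 0, against 46.8% of all genes. Their median change was 0.024. Stat2 and Irf9, which are also among the interferon-stimulated genes above, are counted in these 9. Ifngr1, the ligand-binding chain of the interferon-gamma receptor, had 0.39, 0.19, 0.15 and 0.028, above 0 in all 4 pairs (change 0.19 ± 0.067). Of the nucleic acid sensing genes, 15 of 18 were measured, with 8 above 0 and a median of 0.011. These 8 include Ifih1 and Dhx58, which are also among the interferon-stimulated genes above. Trex1, a DNA-degrading nuclease, was at -0.17 and Tbk1, a kinase of the sensing pathway, at 0.20.

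The guanylate-binding proteins and immunity-related GTPases attack intracellular pathogens and are induced by interferon gamma in particular. Of the 14 measured, 9 were above 0 in pairs 1 and 3 and below 0 in pairs 2 and 4. This pattern was seen in 17.2% of all genes. All 14 of the measured genes (of 15) had a change above 0, against 46.8% of all genes, with a median of 0.23. Their medians in pairs 1 to 4 were 0.52, -0.50, 1.15 and -0.22. Gbp4 had 1.04, -0.53, 1.44 and -0.078 (change 0.47 ± 0.10) and Gbp5 had 0.59, 0.10, 1.08 and -0.26 (change 0.38 ± 0.10). The MHC class I presentation genes had 8 of 13 above 0, against 46.8% of all genes, and a median of 0.049. B2m, the light chain of MHC class I, had 0.25, 0.16, 0.39 and -0.063 (change 0.18 ± 0.066), and H2-K1, a heavy chain, had 0.55, 0.24, 0.071 and 0.093 (change 0.24 ± 0.090). These differences between lists were not tested.

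Markers of the cells that could carry the response differed between pairs as well. Of 16 microglia and macrophage markers 12 were measured, with medians of -0.0012, -0.21, 0.19 and 0.0086 in pairs 1 to 4 and a median change of 0.015. Cx3cr1 (0.093) and Itgam (0.091) had the smallest unadjusted p of them. The 9 astrocyte markers measured had pair medians of 0.092, -0.058, 0.054 and -0.016 (Sox9 0.15, Slc1a3 0.10), and the 10 endothelial and mural markers had 0.26, 0.17, 0.057 and 0.16 (Rgs5 0.32, Pdgfrb 0.14). Infiltrating leukocyte markers, 10 of 12 measured, were at a median of 1.18 times background (1.03 to 1.6), with a median change of -0.019 (Cd79a 0.086, Klrd1 -0.059). The 6 oligodendrocyte markers measured had 0.35, 0.12, -0.14 and 0.042 (Cldn11 0.15, Mobp 0.13), and the 9 pallidal markers -0.077, -0.018, 0.060 and -0.061. Of these 9, 5 had a change above 0, against 46.8% of all genes, and the median change was 0.016. Kcng4, at -0.16, and Npas1, at -0.10, had the smallest unadjusted p among the pallidal markers. The part of these cell types in the values of the interferon-stimulated genes was not tested.

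**Figure D5:**
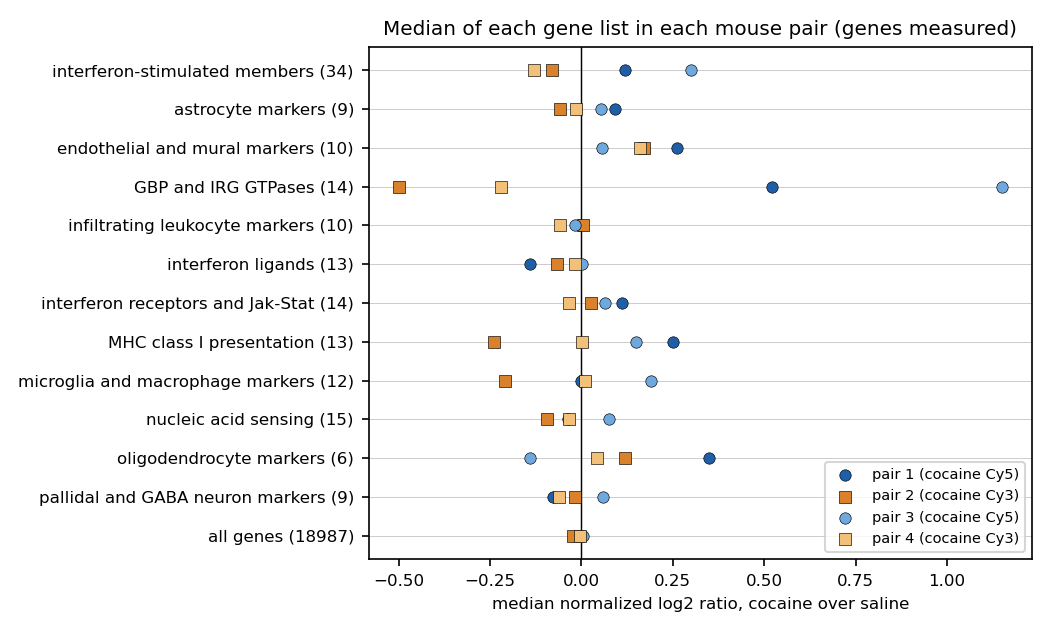
Median normalized log2 ratio of cocaine over saline (x axis) of each gene list (rows, number of genes measured in brackets) in each of the 4 mouse pairs. The medians of the interferon-stimulated genes, the GBP and IRG GTPases and the astrocyte markers lie above 0 in pairs 1 and 3 and below 0 in pairs 2 and 4, at 0.30, 1.15 and 0.054 in pair 3. The medians of all genes lie between -0.022 and 0.0038.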

How the data were processed

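RNA of 4 cocaine and 4 saline mice was measured on 4 Agilent arrays. Per the labels' protocols, RNA was taken up with a PicoPure kit, amplified linearly and coupled to Cy3 or Cy5. Per the submitters' processing notes, Agilent Feature Extraction was used, with no version or normalization named there. The authors deposited 45220 log2 ratios for each array, with medians of 0.42, -0.58, 0.41 and -0.43. Their correlations were 0.892 and 0.889 within a dye orientation and -0.847 to -0.947 between orientations.

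On arrays 1 and 3, 98.7% of values were log2 of a ratio of 2 whole numbers, so they were read as unnormalized log2 ratios turned to 1 treatment direction. The mean signal was recovered from these fractions for 99.1% of features, averaged over the multiples each fraction allows. On 5000 simulated features 74.9% of signals lay within 0.5 log2 of the truth and 92.8% within 1. The simulation drew on the recovered signals and on assumptions of the recovery, so it cannot show whether those assumptions hold for the real arrays. The settings of this recovery were revised several times after the table's values, those of the interferon-stimulated genes included, had been seen. This was before the tests reported here, but earlier results of these data were known. The dye calls depend on the recovery. The planned test assumed normalized ratios, so loess (limma loessFit, span 0.3, 4 iterations) was added. 253 listed features without a recovered signal were left out.

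Genes were named from the platform annotation. They were fitted with limma 3.58.1 (lmFit, eBayes) in R 4.3.3, two-sided, with Benjamini-Hochberg adjustment over 18987 genes, a change and a dye-orientation coefficient, with 2 residual and 3.97 prior degrees of freedom. The members and lists were chosen with earlier results of these data known. By rule, every measured member is named, and from each related list the 2 genes of smallest unadjusted p. Promoter letters came from RefSeq windows (GRCm38.p6). 13 alternatives were tried.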

Additional observations from a re-analysis of the deposited data

Results flagged for a closer look

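In 34 genes, the highest and lowest of the 4 pair values were checked for a gap to the nearest other value above Dixon's critical share of the range, which chance passes in about 1 in 20 groups. Zbp1 was set apart by its normalized log2 ratio of 0.96 in pair 3, where the other pairs lay between -0.26 and -0.072. Ifi35 was set apart by -0.25 in pair 2, where the other pairs lay between -0.020 and 0.0090.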

How the results depend on the processing

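Every alternative gave 0 members past an adjusted p under 0.05; over all genes, 1 passed without pair 2 and 3 without pair 4, where a single array is left in 1 dye orientation. The members' median stayed between -0.017 and 0.10 over all alternatives, below 0 as deposited (-0.011, all genes -0.082) and without pair 3 (-0.017). Of the values recomputed, 456 were counted as the same, 20 as moved and 67 as turned in sign. For the change of a gene, the same means an unchanged sign and side of the threshold. A count or a median was the same where it stayed near the reported value, so a median near 0 could cross 0 and still count as the same. The turned values are all changes of single genes, and none had been past the threshold. The causes were not tested. Loess on the dye contrast, normexp on the recovered signals and the shifted signals were chosen after seeing the data.

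Members above 0 numbered 27 (46.8% of all genes), 14 as deposited (19.6% of all genes there) and 12 to 30 with a pair left out (45.9% to 50.4%). Members higher at an unadjusted p under 0.05 numbered 2 (0.927% of all genes), with 0 as deposited (0.0105%) and 0 centred without loess (0.169%). They numbered 1 without the dye term (0.474%), 1 with the brightest feature (1.05%) and 0 to 6 with a pair left out (0.579% to 3.53%). Members past the dye threshold numbered 2 (0.384% of all genes), with 30 as deposited (68.4%), 23 centred without loess (75.2%), 0 with the brightest feature (0%), 6 without the dimmest features (2.91%), 5 with normexp (4.29%) and 0 to 2 with a pair left out (0% to 2.55%).

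As deposited, these changes turned: Irf1 -0.076, Irf7 -0.037, Ifih1 -0.0063, Trim25 -0.039, Isg15 -0.015, Ifit3 -0.10, Oas2 -0.0082, Mx1 -0.0014, Cmpk2 -0.11, Eif2ak2 -0.13, Lgals3bp -0.25, Ifi27 -0.18 and Trim30a -0.019. Centred without loess, Irf1 -0.0064, Ifit2 0.029, Ifit3 -0.028, Oasl1 0.032, Cmpk2 -0.040, Eif2ak2 -0.061, Parp9 0.028, Lgals3bp -0.18 and Ifi27 -0.11 turned. With loess on the dye contrast, Ifit2 0.0067, Cmpk2 -0.0066, Samhd1 0.045 and Xaf1 0.022 turned. With the brightest feature, Dhx58 -0.0037, Ifit2 0.0075 and Mx1 -0.11 turned. Scaled arrays turned Mx1 (-0.00099) and Samhd1 (0.0039), span 0.7 Lgals3bp (-0.0054), the dimmest features left out Dhx58 (-0.0037), and normexp Cmpk2 (-0.00020).

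With a pair left out, the changes that turned ran from -0.10 to 0.13 for Cmpk2, -0.032 to 0.074 for Eif2ak2, -0.018 to 0.11 for Ifih1, -0.031 to 0.33 for Ifit1, -0.029 to 0.012 for Ifit2, -0.071 to 0.093 for Ifit3, -0.083 to 0.086 for Irf7, -0.10 to 0.15 for Isg15, -0.11 to 0.12 for Lgals3bp, -0.070 to 0.14 for Mx1, -0.016 to 0.21 for Oas1a, -0.068 to 0.089 for Oas2, -0.061 to 0.021 for Oasl1, -0.010 to 0.16 for Parp14, -0.072 to 0.037 for Parp9, -0.13 to 0.085 for Samhd1, -0.012 to 0.092 for Trim25, -0.12 to 0.20 for Trim30a, -0.040 to 0.25 for Usp18, -0.12 to 0.068 for Xaf1 and -0.17 to 0.44 for Zbp1. Each value is already the difference of 2 mice on 1 array, so the fit is itself paired, and no further block was fitted. Scanner background and saturation were not analysed here.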
